A study of Mus musculus with 4 samples.

Results

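The genes described here are the kinases that phosphorylate the translation factor eIF2 on its alpha subunit, the eIF2 subunits and exchange factor subunit on which that phosphorylation acts, and the phosphatase regulators that reverse it. They were taken by gene symbol. All 9 members, of 14936 genes in all, were listed in the deposited table. They are the kinases Eif2ak1, Eif2ak2, Eif2ak3 and Eif2ak4, the subunits Eif2s1, Eif2s2 and Eif2b5, and the phosphatase regulators Ppp1r15a and Ppp1r15b. Whole hearts of 4 mouse embryos of a C57BL/6 background at E18.5, each homozygous for a floxed Adar1 allele, were compared by poly(A) RNA sequencing. Adar1 edits adenosine to inosine in double-stranded RNA. Controls 47 and 50 had wild-type Nkx2.5 alleles without Cre, and mutants 51 and 54 had 1 Nkx2.5-Cre allele, which recombines floxed DNA in cells of the early heart lineage. The Cre allele was present in the mutants alone, so its own effect and that of recombining Adar1 cannot be told apart, and cells of whole hearts in which Cre was never active keep an intact Adar1. The question was how these transcripts differ between hearts with and without the Cre allele.

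The eIF2 complex carries initiator methionyl-tRNA to the ribosome as a GTP-bound complex, and eIF2B recharges it with GTP after each round. Phosphorylation of the alpha subunit turns eIF2 into an inhibitor of eIF2B. General translation then falls, while a few mRNAs with upstream reading frames, such as that of the transcription factor ATF4, are translated more. Each kinase answers to another stress, and PKR, the product of Eif2ak2, is the one that binds double-stranded RNA and is itself encoded by an interferon-stimulated gene. The libraries measure transcripts. Phosphorylation of eIF2 and of the kinases was not measured.

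Between 7457103 and 8998872 reads per library were counted in the table, a single read adding 0.109 to 0.138 CPM, the unit named in the deposited table. Across 14869 genes control 47 correlated with control 50 at 0.989 in log2(CPM + 1), mutant 51 with mutant 54 at 0.976, and the pairs across genotypes at 0.871 to 0.913, with mutant 51 farther from both controls than mutant 54. Adar, the targeted gene, stood at 30.2 and 35.7 CPM in the controls and at 195 and 213 CPM in the mutants. This goes against a loss of its reads. Since the labels do not name the floxed exons, this does not check the deletion, so directions are those of the libraries labelled mutant. Nkx2-5, the gene of the Cre allele, stood at 150 and 143 CPM in the controls and at 69.2 and 92.8 CPM in the mutants. Its fall passed the test (limma adjusted p = 0.00802), and the cause of that fall was not tested. All 9 cardiomyocyte markers were listed, with summed levels of 50876.5 and 40682.9 CPM in the controls and of 21580.3 and 32207.9 CPM in the mutants, and 2 of the 9, Myl2 and Myl7, fell. Of 8 leukocyte markers 5 were analysed, and their summed levels were 76.3 and 66.1 CPM in the controls and 96.4 and 63.5 CPM in the mutants. Ptprc, which marks leukocytes, rose from 3.56 and 2.49 CPM to 20.0 and 9.85 CPM, and Cd68, a macrophage marker, rose too. The other 3, Adgre1, Csf1r and Lyz2, did not pass, and Lyz2 was lower in the mutants, at 21.4 and 7.36 CPM against 24.3 and 24.5 CPM. Of 4 fibroblast markers, whose sums were 4812 and 3947 CPM among controls and 2563 and 2952 CPM among mutants, Pdgfra and Dcn fell. Myh11 fell among 3 smooth muscle markers, 0 of 4 endothelial markers passed, and Foxj1, the 1 airway marker analysed, fell from 5.17 and 4.98 CPM to 0.653 CPM and was listed at 0 in mutant 54. The 5 erythroid markers summed to 5356.42 and 12290.3 CPM in the controls and to 633 and 4812 CPM in the mutants, and none of the 5 passed the test. The part of these markers in the results below was not tested. In whole hearts, fewer cells of a type and less RNA per cell cannot be told apart.

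Of the 9 members 5 rose in the mutants and 0 fell, by limma on log2(CPM + 1) with Benjamini-Hochberg adjustment over all genes tested and a threshold of 0.05. At the same threshold 31.9% of all genes tested changed and 17.8% rose. The members that rose were Eif2ak2, Ppp1r15a, Eif2s2, Ppp1r15b and Eif2s1. The first 4 of these rose at least 2-fold, as did 7.71% of all genes tested. The members that did not pass were Eif2ak1, Eif2ak3, Eif2ak4 and Eif2b5. All 9 passed the filter on low values, and the lowest member in any library was Eif2ak3, with 110 reads in mutant 51. Both mutants lay above both controls for 6 of the 9 members, against 36.0% of all genes tested. The groups did not overlap in either direction for 7 of 9, against 72.2% of all genes. The authors' deposited table has the same 5 members at an FDR under 0.05.

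**Figure D1:**
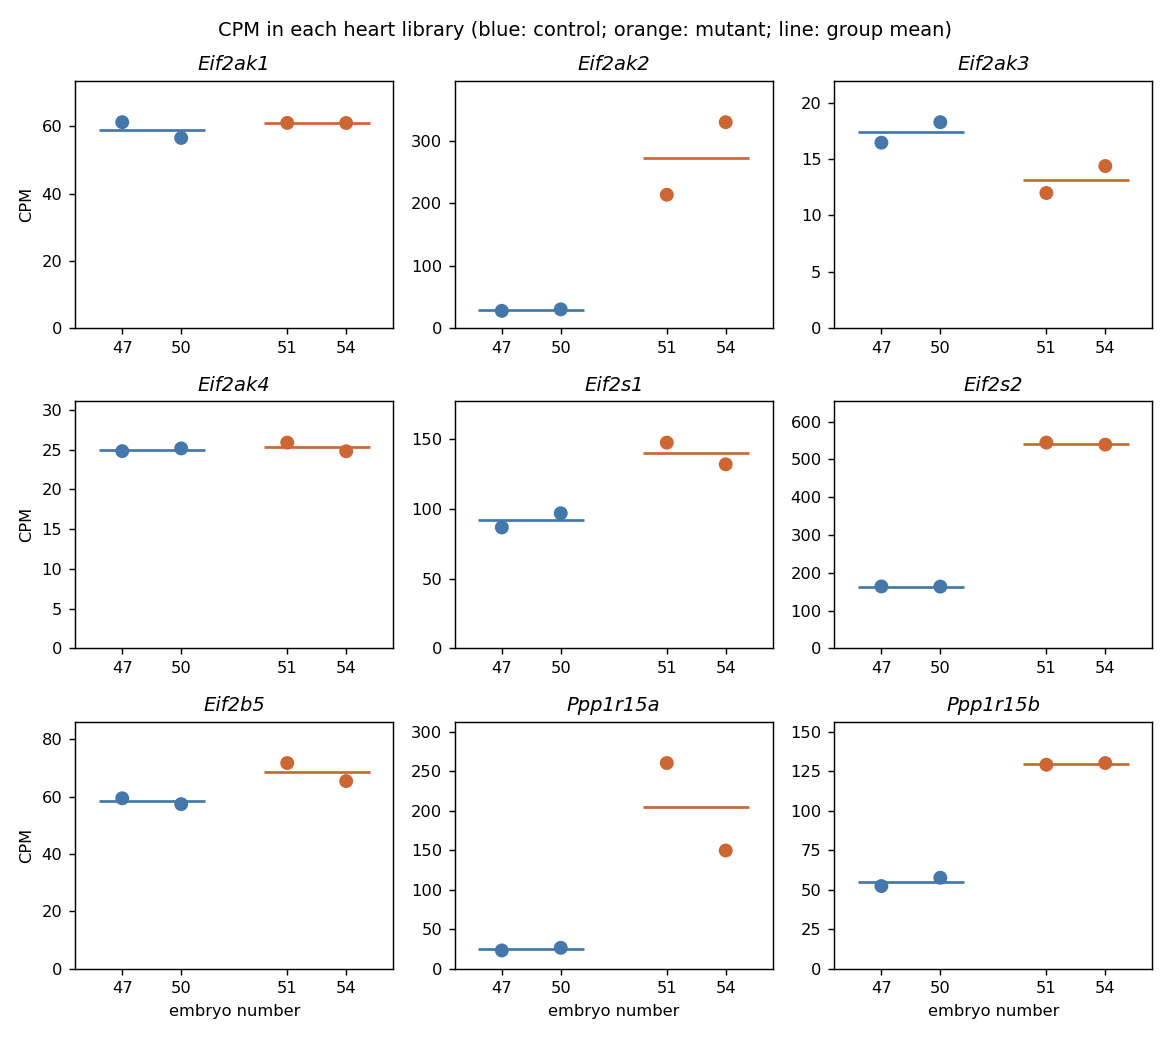
CPM (vertical axis, from 0) of each member in the heart libraries of controls 47 and 50 and mutants 51 and 54 (horizontal axis); each point is a library and each line a group mean of 2. Eif2ak2 lay at 27.5 and 29.9 CPM in the controls and at 214 and 331 CPM in the mutants, while Eif2ak1 and Eif2ak4 overlapped between the groups.

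Eif2ak2 encodes PKR, whose binding of double-stranded RNA switches on its kinase domain. The gene (ENSMUSG00000024079) lies on the minus strand of chromosome 17, from 78852564 to 78882573 in GRCm38. Its promoter window and those of the other members that rose are printed as a description, and their part in the changes was not tested. They come from RefSeq on GRCm38.p6, run 5′ to 3′ from 250 bases before to 50 bases after the annotated start, and cover 4 of the 5 rising members. Capitals mark matches to the core of the interferon-stimulated response element, GAAA repeated after any 2 bases, which interferon-activated factors bind, and to the cyclic AMP response element, TGACGTCA, which ATF and CREB factors bind, on either strand. Ppp1r15b had no entry.
Eif2ak2, chr17:78882523-78882822, minus strand: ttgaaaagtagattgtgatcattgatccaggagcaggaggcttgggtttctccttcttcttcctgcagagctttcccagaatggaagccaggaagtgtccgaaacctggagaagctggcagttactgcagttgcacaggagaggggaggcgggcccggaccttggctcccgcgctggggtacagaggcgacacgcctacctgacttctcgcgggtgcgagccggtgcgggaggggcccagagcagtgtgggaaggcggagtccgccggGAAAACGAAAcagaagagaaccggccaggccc
Ppp1r15a, chr7:45526219-45526518, minus strand: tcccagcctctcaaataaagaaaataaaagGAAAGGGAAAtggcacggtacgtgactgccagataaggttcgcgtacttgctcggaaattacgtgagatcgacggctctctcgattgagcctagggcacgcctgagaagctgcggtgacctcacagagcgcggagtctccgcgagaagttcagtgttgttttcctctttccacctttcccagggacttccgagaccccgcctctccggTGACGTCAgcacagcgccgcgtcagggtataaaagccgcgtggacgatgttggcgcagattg
Eif2s1, chr12:78861822-78862121, plus strand: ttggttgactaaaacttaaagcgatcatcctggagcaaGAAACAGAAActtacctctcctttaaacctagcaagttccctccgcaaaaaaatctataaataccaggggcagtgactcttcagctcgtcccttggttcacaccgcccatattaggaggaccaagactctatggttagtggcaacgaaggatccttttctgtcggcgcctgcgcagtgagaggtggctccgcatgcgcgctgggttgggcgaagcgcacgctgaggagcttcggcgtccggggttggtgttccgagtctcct
Eif2s2, chr2:154892857-154893156, minus strand: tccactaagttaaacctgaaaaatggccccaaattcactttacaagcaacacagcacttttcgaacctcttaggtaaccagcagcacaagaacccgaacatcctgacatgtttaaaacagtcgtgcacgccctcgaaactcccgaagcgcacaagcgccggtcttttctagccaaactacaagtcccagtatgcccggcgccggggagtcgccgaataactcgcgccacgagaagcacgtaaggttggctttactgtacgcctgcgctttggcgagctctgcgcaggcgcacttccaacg
The match GAAAACGAAA in the Eif2ak2 window began 19 bases into the transcribed side of the start. Ppp1r15a held GAAAGGGAAA from position -220 relative to its start and TGACGTCA from position -12. Eif2s1 held GAAACAGAAA from position -212 relative to its RefSeq start. In GENCODE the Eif2s1 gene starts at 78861819, ahead of this whole window, so the match lies within that gene's span. The 2 annotations place the start differently. No match to these motifs was found in the Eif2s2 window. That core was found in 3.44% and TGACGTCA in 1.79% of 32851 RefSeq promoter windows. The last motif searched on both strands, the core TGATGNAA of the element bound by C/EBP and ATF dimers, was in 3.97% of windows and in none of the 9 windows of 8 members. The motifs share no bases in these matches, and a match is a description of letters and not a binding site.

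In the controls Eif2ak2 stood at 27.5 and 29.9 CPM, and in mutants 51 and 54 at 214 and 331 CPM. Both mutants were far above both controls, and the mutants differed from each other by more than the controls did. Control hearts averaged 28.7 ± 1.70 CPM and mutant hearts 272 ± 82.4 CPM (± SD, n = 2), a ratio of 9.49. The log2 fold change was 3.17 with an SE of 0.20 (limma adjusted p = 7.96e-05). Its log2 fold change ranked 181 from the highest among 14869 genes tested. Gm26637, a long noncoding RNA gene on the opposite strand, shares 174 exonic bases with Eif2ak2. It went from 1.72 and 1.52 CPM to 10.2 and 18.04 CPM. The strand setting of the authors' counting is not given in the sources used here, so reads in the shared stretch cannot be told apart.

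The other kinases did not pass the test. Eif2ak1 encodes HRI, the heme-regulated kinase, which also answers to mitochondrial stress. It stood at 61.3 and 56.6 CPM in the controls and at 61.0 CPM in each mutant. The mutants lay within the range of the controls, and the log2 fold change was 0.05 (95% interval -0.22 to 0.33, limma adjusted p = 0.754). Eif2ak4 encodes GCN2, which is activated when amino acids are short and uncharged tRNAs accumulate. It stood at 24.8 and 25.2 CPM in the controls and at 25.9 and 24.8 CPM in the mutants. The groups overlapped, and the log2 fold change was 0.02 (95% interval -0.31 to 0.35, limma adjusted p = 0.923). The sign of both values turned under upper-quartile scaling and quantile normalization.

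Eif2ak3 encodes PERK, the kinase of the endoplasmic reticulum membrane that responds to unfolded proteins. It stood at 16.4 and 18.3 CPM in the controls and at 11.97 and 14.4 CPM in the mutants. Both mutants lay below both controls, but the difference did not pass the test, with a log2 fold change of -0.38 (95% interval -0.80 to 0.05, limma adjusted p = 0.145). Eif2ak3 had between 110 and 143 reads per library, the fewest of the members. Aimp2 and Ankrd61 share exonic bases with Eif2ak1 on the opposite strand, and Gm43292 shares 485 with Eif2ak3, and none of these 3 passed the test.

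The makeup of the kinase transcripts differed between the groups. Eif2ak2 gave 21.1% of the reads of the 4 kinases in control 47 (Wilson 95% interval 18.9 to 23.6) and 23.0% in control 50 (20.4 to 25.8). In mutant 51 it gave 68.4% (66.7 to 70.1) and in mutant 54 76.7% (75.3 to 78.1). The intervals cover counting error only, and those of the mutants lie far above those of the controls. Eif2ak1 gave the most reads in both controls, at 47.1% and 43.6%, and gave 19.5% and 14.2% in the mutants. Summed CPM of the 4 kinases was 130 and 129.9 among controls and 313 and 431 among mutants. The CPM ratio of Eif2ak2 to the other 3 kinases together, which does not depend on the scaling between libraries, was 0.268 and 0.299 in the controls and 2.16 and 3.30 in the mutants. These shares are a description with no test.

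**Figure D2:**
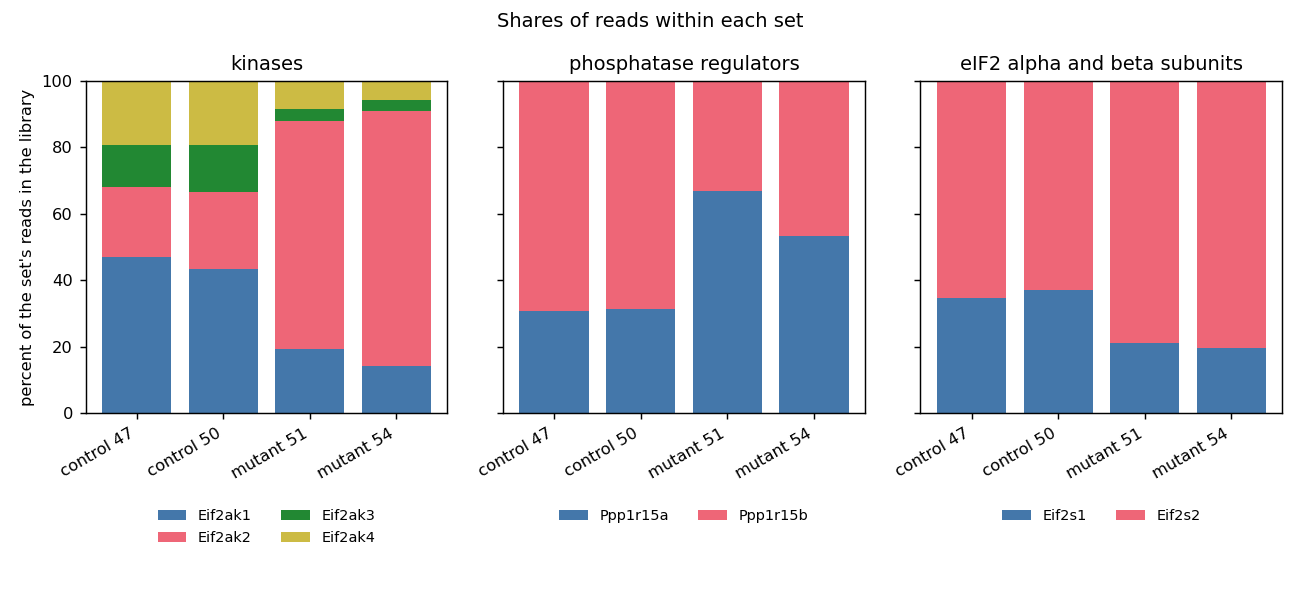
Percent of the reads of a set (vertical axis, 0 to 100) that each of its genes gave in each library (horizontal axis), for the 4 kinases, the phosphatase regulators and the eIF2 alpha and beta subunits. The Eif2ak2 share was 21.1% and 23.0% in the controls and 68.4% and 76.7% in the mutants, and the Ppp1r15a share 30.7% and 31.5% against 66.8% and 53.5%.

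Of the eIF2 subunits among the members, the beta subunit changed more than the alpha subunit. Eif2s1 encodes the alpha subunit, which carries the serine that the kinases phosphorylate (chromosome 12, 78861819 to 78887010). It stood at 86.7 and 96.8 CPM in the controls and at 147 and 132 CPM in the mutants. The groups did not overlap, and the log2 fold change was 0.60 with an SE of 0.12 (limma adjusted p = 0.0122). This call was lost when either control was left out, with an adjusted p of 0.148 in the absence of embryo 47 and of 0.0965 in the absence of embryo 50. Its adjusted p lay between 0.00644 and 0.148 over the alternatives. Transcripts of 3 other genes matched Eif2s1 at 95% identity or more over at least 150 bases, none of them among the analysed genes, so reads of those copies could be split uncertainly.

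Eif2s2 encodes the beta subunit, which contacts eIF2B and eIF5 (chromosome 2, 154871410 to 154892935). It stood at 164 and 163 CPM in the controls and at 545 and 539 CPM in the mutants. The replicates of each group lay close together and the groups far apart, with a ratio of means of 3.31. The log2 fold change was 1.72 with an SE of 0.12 (limma adjusted p = 0.000135). Gm9892 matched Eif2s2 at 99.5% identity over 992 bases. It had between 1.38 and 1.66 CPM in the controls and between 3.56 and 4.03 CPM in the mutants, so reads could be split between them. The CPM ratio of Eif2s2 to Eif2s1 was 1.89 and 1.69 in the controls and 3.69 and 4.09 in the mutants.

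Eif2b5 encodes eIF2B epsilon, the catalytic subunit of the exchange factor that phosphorylated eIF2 inhibits (chromosome 16, 20498817 to 20509323). It stood at 59.4 and 57.4 CPM in the controls and at 71.7 and 65.4 CPM in the mutants. Both mutants lay above both controls, but the difference did not pass the test, with a log2 fold change of 0.23 (95% interval -0.05 to 0.50, limma adjusted p = 0.176).

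Both phosphatase regulators rose. Ppp1r15a encodes GADD34, the stress-induced subunit that brings protein phosphatase 1 to eIF2 and so ends the response (chromosome 7, 45522916 to 45526268). It stood at 23.2 and 26.6 CPM in the controls, at 260.4 CPM in mutant 51 and at 149.7 CPM in mutant 54. Both mutants were far above the controls, and here mutant 51 was the higher, whereas mutant 54 was the higher for Eif2ak2. The log2 fold change was 2.94 with an SE of 0.24 (limma adjusted p = 0.000286), and it ranked 200 from the highest among all genes tested. With embryo 51 left out it was 2.54 and with embryo 54 left out 3.34, past the threshold in both.

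Ppp1r15b encodes CReP, the constitutive counterpart of GADD34 (chromosome 1, 133131143 to 133139783). It stood at 52.4 and 57.7 CPM in the controls and at 129 and 130.3 CPM in the mutants. The mutants lay close together above both controls, and the log2 fold change was 1.22 with an SE of 0.11 (limma adjusted p = 0.000539). Gm26616 shares 640 exonic bases with it on the opposite strand and went from 7.01 and 8.57 CPM to 15.9 and 21.4 CPM, and reads of the shared stretch cannot be told apart. Ppp1r15a gave 30.7% and 31.5% of the reads of both regulators in the controls and 66.8% and 53.5% in mutants 51 and 54. The CPM ratio of Ppp1r15a to Ppp1r15b was 0.443 for control 47, 0.460 for control 50, 2.01 for mutant 51 and 1.15 for mutant 54.

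**Figure D3:**
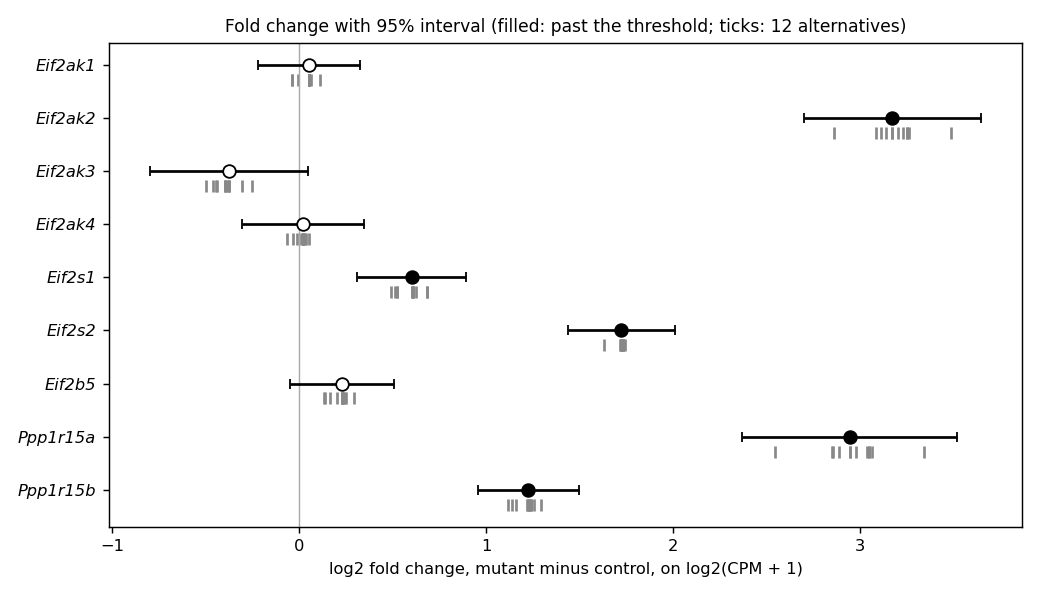
Log2 fold change of each member, mutant over control from log2(CPM + 1) values (horizontal axis), with its limma 95% interval; filled points passed the threshold, and grey ticks give the value under the 12 alternatives. Eif2ak2 at 3.17 and Ppp1r15a at 2.94 stand farthest from 0, and the intervals of Eif2ak1, Eif2ak3, Eif2ak4 and Eif2b5 include 0.

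Without control replicate 47, 4 of the 9 members rose, against 3.59% of all genes tested, and without control replicate 50 4 rose, against 3.99%. Both times they were the 4 other than Eif2s1. The lone control was then assumed to vary like the mutants.

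Levels were compared between members as CPM per kilobase of annotated exon. In the controls Eif2s2 was highest at 24.2 ± 0.0467, followed by Eif2b5 at 22.5 ± 0.554 and Eif2s1 at 18.53 ± 1.45 CPM per kilobase (SD, n = 2). Eif2ak1 stood at 10.4 ± 0.586, Ppp1r15b at 9.84 ± 0.664 and Ppp1r15a at 8.47 ± 0.803 CPM per kilobase. These 3 lie close together, and the library values of Eif2ak1 and Ppp1r15b overlapped, as did those of no other neighbours in the order of the controls. Eif2ak2 stood at 5.61 ± 0.332, Eif2ak4 at 3.35 ± 0.0324 and Eif2ak3 at 2.88 ± 0.213 CPM per kilobase. In the mutants Eif2s2 was at 80.2 ± 0.558, Ppp1r15a at 69.8 ± 26.7 and Eif2ak2 at 53.2 ± 16.1 CPM per kilobase. The library values of Ppp1r15a overlapped those of Eif2s2 and of Eif2ak2, while both Eif2s2 values lay above both Eif2ak2 values. Eif2s1 at 28.2 ± 2.22, Eif2b5 at 26.4 ± 1.72 and Ppp1r15b at 23.2 ± 0.135 CPM per kilobase followed, and values of the first 2 overlapped. Eif2ak1 at 10.8, Eif2ak4 at 3.40 and Eif2ak3 at 2.19 CPM per kilobase came last. With the longest transcript as length, Eif2s2 stood at 39.9 in the controls and at 132 CPM per kilobase in the mutants, and the overlaps of Ppp1r15a with Eif2s2, of Eif2s1 with Eif2b5 and, in the controls, of Eif2ak1 with Ppp1r15b were lost, while Ppp1r15a and Ppp1r15b then overlapped in the controls. Among the kinases Eif2ak2 went from below Eif2ak1 in the controls to above it in the mutants.

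**Figure D4:**
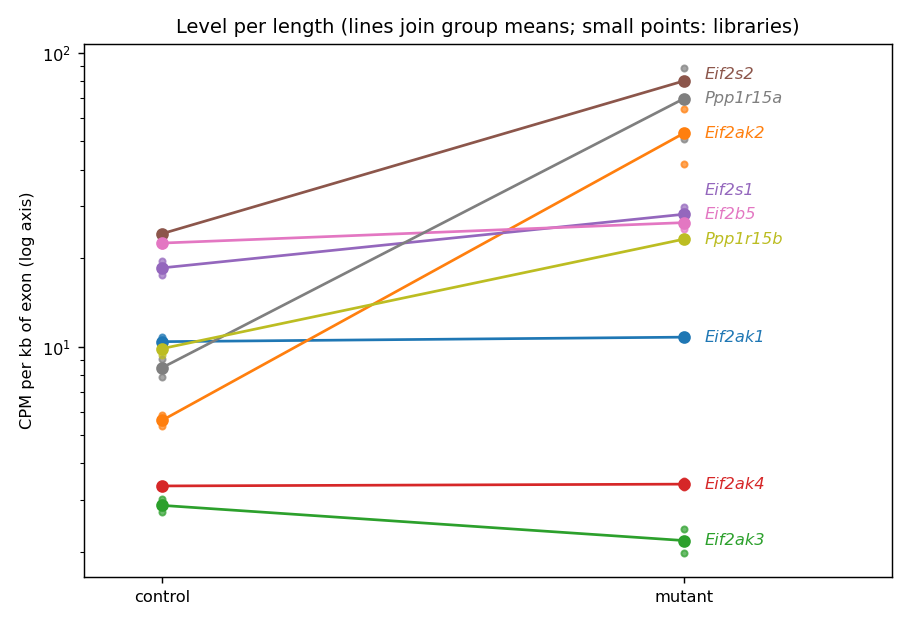
Level of each member in CPM per kilobase of annotated exon (vertical axis, log scale) in controls and mutants; lines join group means of 2 libraries and small points are libraries. Eif2ak2 crosses Eif2ak1, from 5.61 against 10.4 in the controls to 53.2 against 10.8 in the mutants.

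Of 18 further genes of eIF2, eIF2B and eIF2 recycling, 3 rose and 1 fell, with a median log2 fold change of -0.05 against -0.01 for all genes tested. For this list and those below, the comparison is with all genes tested, of which 17.8% rose and 2107 of 14869 fell. Eif5, which encodes the activator of GTP hydrolysis by eIF2, rose by 1.199 (SE 0.15, limma adjusted p = 0.00184). Eif2b3, the gamma subunit of eIF2B, rose by 1.005 (SE 0.19) and Eif1, a guardian of start codon choice, by 0.67 (SE 0.14). Bzw2, which encodes an eIF5-mimic protein, fell by 0.89 on the log2 scale (SE 0.11, limma adjusted p = 0.00194). Eif2s3x and Eif2s3y, the X-linked and Y-linked genes of the gamma subunit, did not pass, at -0.10 (SE 0.13) and -0.14 (SE 0.16), and the groups overlapped for both. The remaining eIF2B subunits Eif2b1, Eif2b2 and Eif2b4 had log2 fold changes of -0.06, 0.19 and 0.21 and did not pass. Without either control 0 genes of this list passed in either direction. Under quantile normalization, as under upper-quartile scaling, 3 fell, and 2 fell without mutant replicate 54.

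Of 12 genes whose products bind or modulate PKR, 3 rose and 2 fell, with a median of 0.05. Dus2, a tRNA dihydrouridine synthase whose human form inhibits PKR, rose by 1.27 (SE 0.20, limma adjusted p = 0.00506), and Prkrip1, which encodes a PKR-interacting protein, by 0.76 (SE 0.16, limma adjusted p = 0.0141). Tarbp2, which binds and inhibits PKR, fell from 49.3 and 44.0 CPM to 30.8 and 33.6 CPM, by 0.52 on the log2 scale (SE 0.13, limma adjusted p = 0.0255). Ilf2, which encodes a nuclear RNA-binding protein, fell by 0.39 on the log2 scale (SE 0.11). Prkra, which encodes the PKR activator PACT, stood at 27.8 and 30.6 CPM in the controls and at 19.6 and 24.0 CPM in the mutants and did not pass (limma adjusted p = 0.0890). Without either control 0 of this list passed in either direction. Without mutant replicate 54 5 rose, 0 fell with DESeq2 or with embryo 51 left out, and 4 fell under upper-quartile scaling.

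Of 9 genes that activate or restrain the other kinases, 1 rose and 1 fell, with a median of 0.17. Abcf3, a relative of a yeast partner of GCN2, rose by 0.46 (SE 0.12, limma adjusted p = 0.0273). Dele1, which relays mitochondrial stress to HRI, fell from 89.7 and 83.4 CPM to 49.6 and 61.5 CPM, by 0.64 on the log2 scale (SE 0.14, limma adjusted p = 0.0151). Hspa5, the chaperone that restrains PERK, had a log2 fold change of 0.01 (SE 0.19), and mutant 51 at 622 CPM and mutant 54 at 444 CPM lay on either side of the controls at 521 and 523 CPM. Gcn1, listed as Gcn1l1, which is needed to activate GCN2, had a log2 fold change of 0.19 (SE 0.11) and did not pass. None of the 9 passed without either control. The rise of Abcf3 was also not past the threshold without mutant replicate 54, with quantile normalization and with DESeq2. The catalytic subunits of protein phosphatase 1, Ppp1ca, Ppp1cb and Ppp1cc, had log2 fold changes of -0.36, -0.32 and -0.25, and 0 of 3 passed. All 3 fell without mutant replicate 54, and 1 fell under upper-quartile scaling.

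Of 16 transcripts known to rise when eIF2alpha is phosphorylated, 14 rose and 0 fell, with a median log2 fold change of 3.26 against -0.01 for all genes tested. The 6 with the smallest adjusted p were Chac1, a glutathione-degrading enzyme, Asns, asparagine synthetase, the transcription factors Atf3 and Atf5, the secreted factor Gdf15 and Sesn2, an inhibitor of mTORC1. Their log2 fold changes lay between 2.87 and 6.58. Atf4, named for its role after its values were seen, stood at 102.3 and 102.1 CPM in the controls and at 466 and 460 CPM in the mutants. The log2 fold change of Atf4 was 2.17 with an SE of 0.11 (limma adjusted p = 3.26e-05). Ddit4 and Vldlr were the 2 that did not pass. Ddit4, which encodes an inhibitor of mTORC1, stood at 44.4 and 59.5 CPM among controls, at 149 CPM in embryo 51 and at 56.0 CPM in embryo 54, so its groups overlapped. The rises numbered 12 without either control and 15 without either mutant.

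Of 14 interferon-stimulated genes that sense or answer double-stranded RNA, 13 rose and 0 fell, with a median log2 fold change of 5.63. Ifih1, Oasl2, Mx1, Ddx58, Isg15 and Oas1a had the smallest adjusted p, with log2 fold changes between 4.44 and 8.64. The rise of Eif2ak2, at 3.17, was below this median, and its control level of 27.5 and 29.9 CPM was above the control levels of each of these 6 genes. The rises numbered 13 without each library in turn.

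**Figure D5:**
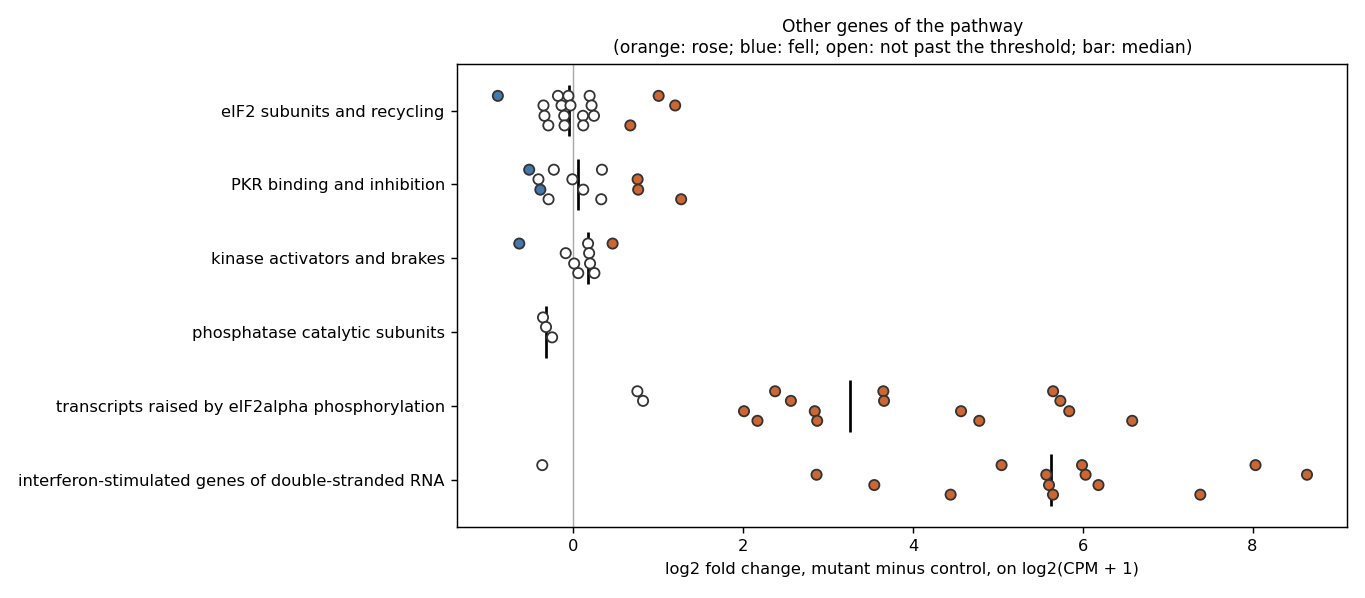
Log2 fold change, mutant over control from log2(CPM + 1) values (horizontal axis), of each gene of the 6 lists; colours mark genes past the threshold and bars the median of a list. The medians lay at 3.26 for transcripts raised by eIF2alpha phosphorylation and at 5.63 for the interferon-stimulated genes, and between -0.32 and 0.17 for the other 4 lists.

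The genes whose profiles over the 4 libraries lay nearest to that of Eif2ak2, by the Euclidean distance between log2(CPM + 1) values centred on their mean, were Gm15270, Zc3hav1, Irf9, Ccn2 and Gm47248. Their distances ran from 0.299 to 0.393. Zc3hav1 encodes the zinc-finger antiviral protein and Irf9 a subunit of the interferon-activated factor ISGF3. Zc3hav1 stood at 21.0 and 28.9 CPM in the controls and at 209 and 258 CPM in the mutants, and Irf9 at 17.9 and 22.1 CPM against 195 and 229 CPM. Ccn2 encodes a matricellular growth factor and went from 76.8 and 70.8 CPM to 416 and 691 CPM. Nearest to Ppp1r15a were Tlr2, Serpinb1c, Chd5, Syt12 and Siglec1, at distances from 0.0633 to 0.198. All 5 were below 3 CPM in both controls, whereas Ppp1r15a stood at 23.2 and 26.6 CPM there. Like Ppp1r15a, the 5 were higher in mutant 51 than in mutant 54. Serpinb1c went from 0 and 0.277 CPM to 10.8 and 5.34 CPM. The 1 CPM added before the log2 shrinks the changes of such low genes, so this nearness holds on that scale. Likeness over 4 libraries is a description, since many genes share such a pattern.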

How the data were processed

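Hearts of 4 embryos gave poly(A) libraries, sequenced as paired reads of 150 bases with 2 embryos per group, per the labels' protocols, and groups were taken from the sample titles. Trimming and alignment tools in the submitters' processing notes are STAR and fastp 0.20.0, with GRCm38 as build, and edgeR 3.10 and DESeq are also named. How reads were assigned to genes, and whether by strand, is not given in the sources used here.

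Values of 14936 genes were deposited together, with a CPM column for each embryo. Per the file headers this signal is CPM, but the columns differ in their sums, as they would if scaled to effective library sizes, a step that no source used here states. The authors' log2 columns, F score, p-value and FDR are their own, per the file headers, and only the FDR is quoted. In each column 100% of values divided by the smallest step gave whole numbers to within 0.001, which recovered the reads, and counting intervals cover counting error only.

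For 14869 genes that reached 1 CPM in at least 2 libraries, log2(CPM + 1) was compared with limma-trend (limma 3.58.1, R 4.3.3), genotype being the only term. Fold changes on this scale understate the change of low genes. Each p-value reflects how far 2 embryos of a group differ, with a variance trend over all genes. The members and gene lists were chosen with earlier results of these data known. All members were named, and of each list at most 6 genes past the threshold in order of adjusted p, plus any whose groups overlapped. Other list genes named (Atf4, Vldlr, Prkra, Gcn1 and the eIF2, eIF2B and phosphatase subunits that did not pass) were chosen for their role after their values were seen. The values of some list genes are not reported here. The filter, pseudocount, scaling and test were varied, with edgeR 4.0.16 and DESeq2 1.42.0 on recovered reads, and each library was left out in turn. Symbols and positions are those of GENCODE M21 on GRCm38, in which 14916 identifiers matched. Near-identical transcripts were searched with BLAST+ 2.17.0.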

Additional observations from a re-analysis of the deposited data

How the results depend on the processing

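The 5 members past the threshold numbered 5 under each alternative of scaling, pseudocount, filter and test and without either mutant, and between 4 and 5 over the libraries left out. Of 108 values of members under alternatives, 100 kept direction and side of the threshold and 2, both of Eif2s1, were no longer past it. The other 6 changed sign and concern members that were not past it. Eif2ak1 stood at -0.0387 with upper-quartile scaling, at -0.0375 with quantile normalization and between -0.0053 and 0.108 over the libraries left out. Eif2ak4 stood at -0.0686, at -0.0325 and between -0.0104 and 0.0492. These scalings moved the median of all genes by -0.09 and by -0.07. Of 72 pathway genes 38 passed, and between 25 and 46 over the libraries left out. Over all genes 4750 passed, 2643 up and 2107 down, and with a library left out between 571 and 5655 in all, 534 to 2905 up and 37 to 2750 down. The cause was not tested. The balance of calls also moved to 2252 rises and 2939 falls under upper-quartile scaling and to 2188 rises and 2738 falls under quantile normalization.

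With the longest transcript as length, control levels were 13.6 CPM per kilobase for Eif2ak1, 6.65 for Eif2ak2, 3.84 for Eif2ak3, 4.72 for Eif2ak4, 26.9 for Eif2s1, 39.9 for Eif2s2 and 22.9 for Eif2b5, which exchanges Eif2s1 and Eif2b5 in the order. No paired analysis was possible because the embryo numbers of the groups are not shared. With 110 to 143 reads in each library, depth limits the precision of Eif2ak3 most.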
